A study of Mus musculus with 16 samples.

Results

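Integrated stress response genes were followed in mouse liver as a list of 10 genes, namely the transcription factors Atf4, Atf3, Atf5 and Ddit3, the pseudokinase Trib3, the enzymes Asns, Psat1, Phgdh and Mthfd2, and the stress-inducible leucine sensor Sesn2. A gene was measured where the platform annotation gave it a transcript cluster (the probe group that the array reads as 1 transcript) of its own. This held for 8 of the 10 genes, out of 18820 genes with such a cluster, and all 8 were above an intensity of 20 on all 16 arrays. Atf5 shared its cluster with Il4i1b and Ddit3 shared its cluster with Mars1, so neither has a value of its own. Of the 18820 genes, 14275 were above this intensity on at least 5 arrays and entered every test. All levels are log2 intensities and all differences are differences of these, so that a difference of 1 is a doubling.

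RNA was from the livers of 16 male C57BL/6J mice aged 12 months, 1 array per mouse. From 9 weeks of age the mice had received the intermittent diet (INT), 30% calorie restriction (CR), a diet in which fat gave 25% of the energy (medium fat, MF) or the control diet (C). INT mice alternated by the week between MF ad libitum and 40% calorie restriction, and were killed in an MF week. After a 4 h fast, each mouse received by gavage either Wy-14643 (Wy), an agonist of the fatty acid-sensing nuclear receptor PPARα, at 160 mg/kg in carboxymethyl cellulose, or this solvent alone (mock), and was then fasted for the 6 h until death. Every group, including mock-treated C mice, was therefore fasted. In the paper, CR mice received their portion at a set hour of each day, while C and MF mice were fed ad libitum. The time since the last meal may thus differ between CR and other mice, and cannot be told apart from diet. Each diet held 1 high and 1 low body weight pair of a Wy and a mock mouse, which gives 8 pairs and 2 mice in each group of diet and treatment. Body weight is given only as a class within a diet, so the mice of 1 class need not weigh the same across diets. The INT pair of high body weight carried another array code than the other 14 arrays.

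The integrated stress response starts when kinases that sense amino acid shortage, unfolded protein in the endoplasmic reticulum, haem shortage or double-stranded RNA phosphorylate the translation factor eIF2. General protein synthesis then slows, while the Atf4 mRNA is translated more, because short open reading frames ahead of its coding sequence no longer hold ribosomes back. ATF4 binds with C/EBP family partners to C/EBP-ATF response elements and raises genes for amino acid synthesis, transport and charging of tRNA, among them Asns and the serine synthesis enzymes. In liver this pathway answers to amino acid supply, to secretory load and to mitochondrial stress. Arrays measure mRNA, so eIF2 phosphorylation and the translation of Atf4 were not seen here.

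The 3 members whose mRNA differed in any comparison below were Psat1, Asns and Atf3, and the 250 bases ahead of their start sites are shown for that reason (RefSeq, build GRCm38.p6, 5′ to 3′ on the gene's own strand). They lie on the minus strand at chr19:15925060-15925309 for the first of the 2 Psat1 promoters, chr6:7693210-7693459 for Asns and chr1:191183334-191183583 for Atf3. Capitals mark a match to the core of the C/EBP-ATF response element, searched as TGATGNAA on both strands.
Psat1: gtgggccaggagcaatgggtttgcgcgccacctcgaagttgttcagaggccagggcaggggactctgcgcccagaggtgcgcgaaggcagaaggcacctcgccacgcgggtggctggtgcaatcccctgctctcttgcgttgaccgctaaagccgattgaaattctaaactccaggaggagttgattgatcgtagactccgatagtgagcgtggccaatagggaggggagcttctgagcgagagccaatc
Asns: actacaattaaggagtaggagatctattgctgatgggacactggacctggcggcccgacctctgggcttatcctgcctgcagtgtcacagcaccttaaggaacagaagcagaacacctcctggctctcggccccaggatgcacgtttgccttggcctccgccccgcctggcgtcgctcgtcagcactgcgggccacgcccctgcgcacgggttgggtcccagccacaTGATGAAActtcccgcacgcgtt
Atf3: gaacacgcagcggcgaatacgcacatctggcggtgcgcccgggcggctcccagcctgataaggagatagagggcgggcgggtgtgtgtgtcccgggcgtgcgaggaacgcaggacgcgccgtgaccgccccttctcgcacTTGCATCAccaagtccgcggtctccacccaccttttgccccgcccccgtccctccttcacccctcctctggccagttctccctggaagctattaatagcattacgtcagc
The Asns match TGATGAAA began 23 bases ahead of the start site, and the Atf3 match, TTGCATCA, is the element on the other strand. A match, TTACATCA, was also found in Trib3, from base 15 after its start site. No match stood in the windows of 250 bases before to 50 after the start sites of Atf4, Atf5, Ddit3, Psat1, Phgdh, Sesn2 and Mthfd2. Of 32851 promoters of that length, 1304 (3.969%) held a match. The cAMP response element TGACGTCA, in 1.79% of all promoters, and the PPAR response element (a direct repeat with 1 base between), in 0.04%, were found in none of the 10 genes.

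The hepatocyte markers had a log2 summed intensity of 15.98 to 16.29 over the 16 arrays. Array medians lay between 5.53 and 5.59 and correlations between arrays between 0.982 and 0.994. Of the markers of other cells, Adipoq of adipocytes, Cd3d of T cells and Cftr of cholangiocytes were under the intensity of 20 on all 16 arrays, while other markers of the same lists were over it on all of them (Fabp4 6.53 to 10.01, Cd3e 5.54 to 6.59, Sox9 6.87 to 7.73). In whole liver, fewer cells of a type and less RNA per cell cannot be told apart.

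Phgdh, which makes the first step of serine synthesis, needs a caution. The array holds 3 clusters for it, and the brightest, with a mean of 5.96, stands for the gene. Of the 20 genes with the nearest cluster numbers, 19 lie on chromosome 7 and not on chromosome 3, where Phgdh is. Only the dimmest cluster, with a mean of 4.66, has neighbours on chromosome 3, for 19 of 20. For each of the other 7 members at least 18 of 20 neighbours lay on the member's own chromosome. None of the 3 Phgdh clusters passed the test in any comparison, and their Wy minus mock differences were 0.09, -0.02 and -0.06.

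The first comparison asks what a single dose of Wy did to these genes within 6 h. Psat1 and Asns rose, both enzymes of amino acid synthesis, and no member fell. Psat1, the aminotransferase of the second step of serine synthesis, had levels of 5.35 to 6.51 with a median of 5.79 in Wy livers, against 4.72 to 5.72 with a median of 5.17 in mock livers. The ranges overlapped, but within its pair the Wy mouse was the higher in 8 of 8. The difference was 0.66 ± 0.14 (SE, n = 8 pairs), a 1.58-fold rise (adjusted p = 0.00417). An exact sign-flip permutation test over the 8 pairs, two-sided, gave 0.00781, the smallest p that 8 pairs allow.

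Asns makes asparagine from aspartate and glutamine and is a standard readout of amino acid shortage. Its levels were 5.89 to 6.81 with a median of 6.31 in Wy livers, against 5.14 to 6.74 with a median of 5.66 in mock livers. The difference was 0.48 ± 0.13, 1.40-fold (adjusted p = 0.0140), and the exact sign-flip test gave p = 0.0391. Here 7 of 8 pairs were higher with Wy, and the exception was the CR pair of low body weight, with 6.32 in the Wy and 6.74 in the mock liver. That mock liver had the highest Asns level of the 8 mock livers, and it also had their highest Psat1 level, 5.72.

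These 2 of 8 members compare with 28.3% of all genes tested that were called (adjusted p under 0.05) in either direction, 12.3% higher and 16% lower. The count of members is thus close to the share of all genes. The median difference over the members was 0.14, against -0.01 over all genes.

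The transcription factors did not pass the test. Atf3, an early stress-induced member of the ATF family, had levels of 6.24 to 7.07 in Wy livers and 5.64 to 7.37 in mock livers, with a difference of 0.33 ± 0.12 (adjusted p = 0.0528). It was higher with Wy in 6 of 8 pairs, and the exceptions were the C and MF pairs of high body weight. Without an array of the high C pair its difference was 0.41 (adjusted p = 0.0215), and without one of the high MF pair it was 0.42 (adjusted p = 0.0115), so its side of the threshold depended on those pairs. Atf3 stayed uncalled in 18 of 24 alternative settings, with an adjusted p of up to 0.167. These settings are not all separate, since leaving out either mouse of a pair gives the same result. Atf4 itself had 7.31 to 7.74 in Wy livers and 7.05 to 7.60 in mock livers, a difference of 0.13 ± 0.07 (adjusted p = 0.212).

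Of the other members, Trib3, which binds ATF4 and damps its activity, differed by 0.16 ± 0.07 (adjusted p = 0.0931) and was higher in 6 of 8 pairs. It passed only without the high CR pair (0.20, adjusted p = 0.0394). Sesn2, a sestrin that reports leucine to mTORC1, differed by 0.06 ± 0.09. Mthfd2, the mitochondrial folate enzyme of the list, differed by -0.07 ± 0.05 and was higher in 3 of 8 pairs. The 95% intervals of Sesn2, -0.13 to 0.26, and of Mthfd2, -0.19 to 0.05, leave out a rise of the size seen in Psat1.

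**Figure D1:**
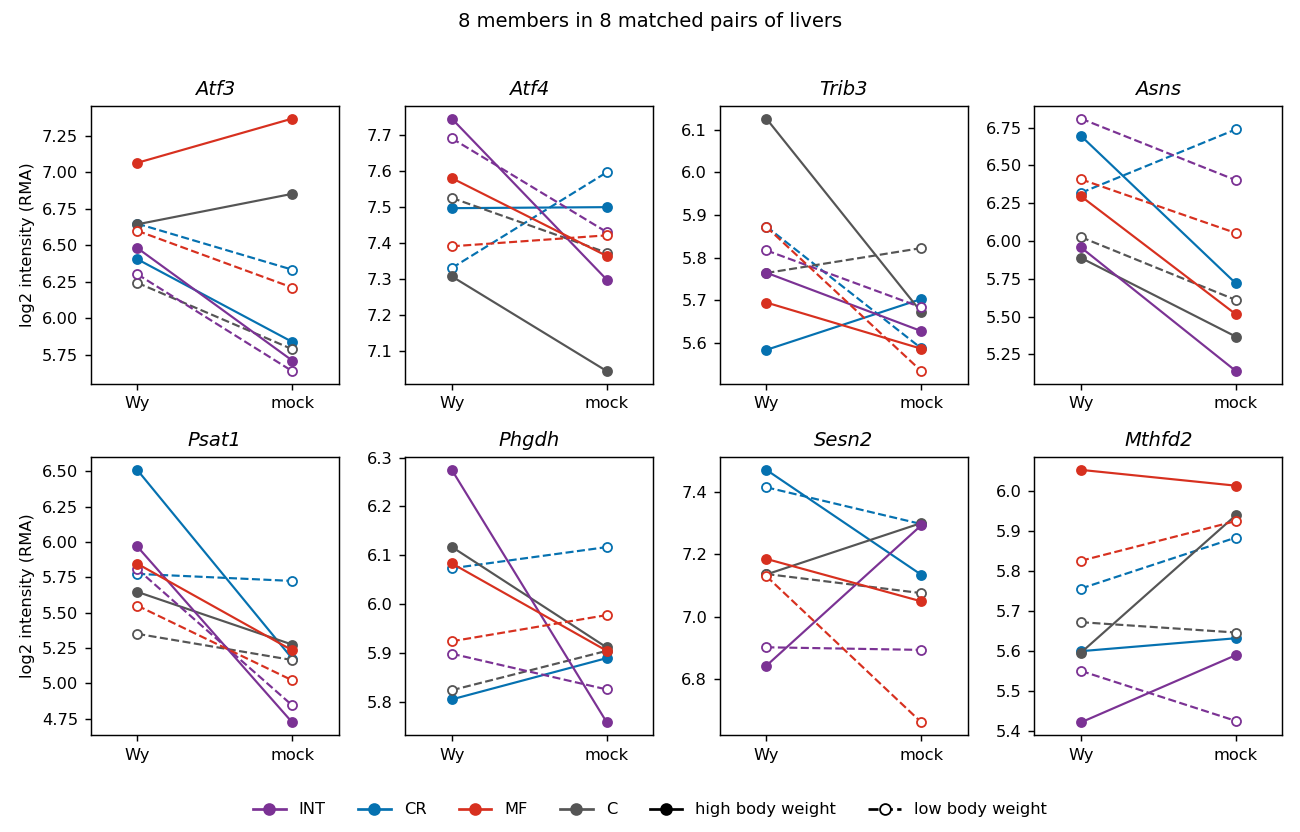
Log2 intensity (vertical axis) of the 8 measured members in Wy and mock livers, 1 point per mouse and 1 line per matched pair, coloured by diet and filled for high body weight. Psat1 is higher with Wy in 8 of 8 pairs and Asns in 7 of 8, and the Atf3 lines of the C and MF pairs of high body weight run the other way from the remaining 6.

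The size of the Psat1 rise was uneven. Wy livers exceeded mock livers by 1.24 and 0.96 in the 2 INT pairs, by 1.33 and 0.05 in CR, by 0.61 and 0.53 in MF, and by 0.37 and 0.19 in C, high body weight first. The mean difference was 1.1045 in INT (adjusted p = 0.0325), 0.69 in CR (adjusted p = 0.198), 0.57 in MF (adjusted p = 0.240) and 0.28 in C (adjusted p = 0.663), with an SE of 0.25 in each diet. Psat1 in INT was the 1 call of a member within a single diet, where 8.82% of all genes were called in INT, 3.28% in CR, 5.22% in MF and 3.62% in C. The test of the difference between diets called none of the 8 members and 0% of all genes, and none of the 8 had an unadjusted p under 0.05 in it, against 669 of 14275 genes. For Psat1, the Wy effect in INT minus that in C was 0.83 ± 0.35 (adjusted p = 0.996), with a 95% interval of 0.02 to 1.63. For Asns the same term was 0.14 ± 0.40, and the Asns pair differences were 0.82 and 0.41 in INT, against 0.52 and 0.42 in C.

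The Asns response was larger in every pair of high body weight than in any pair of low body weight. The share of all genes whose pair differences stand apart in this way was not counted. The differences were 0.82, 0.98, 0.78 and 0.52 in the high INT, CR, MF and C pairs, against 0.41, -0.42, 0.36 and 0.42 in the low ones. The Wy effect in high minus that in low pairs was 0.58 ± 0.19 for Asns, yet its adjusted p was 0.9995, and 0% of all genes passed this test (673 of 14275 at an unadjusted p under 0.05). For Psat1 the same term was 0.46 ± 0.25 and for Atf3 it was -0.25 ± 0.23.

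Around the members, the Wy response ran in both directions, and the counts below stand against 12.3% of all genes called higher and 16% called lower. Among 8 subunits and regulators of eIF2 phosphorylation, Ppp1r15b, the constitutive eIF2 phosphatase subunit, rose by 0.33 ± 0.05 (adjusted p = 0.00062), and Eif2ak3, the kinase PERK of the endoplasmic reticulum, fell by 0.37 ± 0.06 (adjusted p = 0.00119). Dnajc3, an inhibitor of that kinase, fell by 0.15. Of 7 subunits of eIF2 and of its exchange factor eIF2B, 4 rose and none fell, with Eif2b3 the largest at 0.39 ± 0.05. Of 17 cytosolic aminoacyl-tRNA synthetases 6 rose, among them Lars (0.40), Farsa (0.27), Iars (0.25) and Gars (0.22), and 1 fell.

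Of 17 ATF4 partners and other stress targets, 4 rose and 2 fell, which is 6 of 17 beside 28.3% of all genes called. Fgf21, a fasting hormone that is a target of both PPARα and ATF4, rose by 1.82 ± 0.18, and Cdkn1a, the cell cycle inhibitor p21, by 2.66 ± 0.47. Cebpa, a liver C/EBP factor, fell by 0.43 ± 0.09 and Herpud1, of endoplasmic reticulum protein disposal, by 0.37 ± 0.06. Of 13 serine, glycine, one-carbon and proline enzymes outside the member list, 1 rose, 5 fell and the others did not pass the test. Cth, which makes cysteine, fell by 0.67, Got1, the cytosolic aspartate aminotransferase, by 0.59, Mthfd1 by 0.39 and Shmt1 by 0.22. Among 18 chaperones and sensors of the ATF6 and XBP1 branches 2 rose and 6 fell, with Dnajb9 at 0.32 and Ern1, the IRE1 sensor, at -0.62, while 3 of 8 mitochondrial chaperones and proteases rose and none fell (Clpx 0.57, Hspe1 0.27).

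Of the 8 ATF4-linked amino acid transporters tested, 1 rose and 2 fell with Wy (Slc6a9 0.70, Slc43a1 -0.64, Slc7a5 -0.38). Slc1a4, a neutral amino acid transporter among them, was the only gene of the array whose Wy effect differed between CR and C (-2.12 ± 0.17, adjusted p = 0.0206), where Asns differed by -0.19 ± 0.40 and Psat1 by 0.41 ± 0.35.

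Of the marker lists, macrophage, lymphocyte and fibroblast markers had no called gene with Wy. Summed hepatocyte markers were 15.98 to 16.14 in Wy livers, against 16.11 to 16.29 in mock livers. Of 9 hepatocyte markers 2 were called, Cps1 lower by 0.32 and Tat lower by 0.39, beside 28.3% of all genes. Among the uncalled ones, median levels in Wy and mock livers were 13.41 and 13.41 for Alb, 13.31 and 13.32 for Apoa1, and 13.17 and 13.17 for Ttr. Of 3 adipocyte markers tested, Fabp4 was higher by 1.39 and Plin1 by 0.16. Their part in the Psat1 and Asns results was not tested.

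The diet comparisons ask how long-term restriction, fat or their alternation set these genes. No member was called in any of the 6 comparisons of diets, each of 4 against 4 livers in a fit that also held treatment and body weight class. The share of all genes called was 10.5% for CR against C (4.54% higher, 5.98% lower), 9.85% for INT against CR (5.57% higher, 4.28% lower), 12.7% for CR against MF (5.79% higher, 6.87% lower), 0.00701% for INT against C, and 0% for MF against C and for INT against MF. CR livers and INT livers each enter 3 of these comparisons, so the differences below are not independent of each other.

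Asns came nearest to a call in CR. Its 4 levels were 6.70, 6.32, 5.72 and 6.74 in CR livers (high Wy, low Wy, high mock, low mock), against 5.89, 6.03, 5.37 and 5.61 in C livers. Of the 4 CR livers 3 were above all C livers and the high mock liver was not. The difference was 0.65 ± 0.21 (adjusted p = 0.0630). Without the low Wy liver of CR it was 0.86 (adjusted p = 0.0120), and with the 14 arrays of 1 code it was 0.65 (adjusted p = 0.0315). Over 25 alternative settings of this fit Asns stayed uncalled in 22, with an adjusted p of up to 0.510. Between INT and C livers, Asns differed by 0.35 ± 0.21, with INT levels spread over 5.14 to 6.81, the widest range of the 4 diets. INT minus CR was -0.29 ± 0.21 for Asns, and 0.10 in the 14 arrays that leave out the high INT pair.

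Psat1 had levels of 5.18 to 6.51 in CR livers, against 5.17 to 5.65 in C livers, a difference of 0.44 ± 0.18 (adjusted p = 0.144). INT minus CR was -0.46 ± 0.18 (adjusted p = 0.132), with INT livers at 4.72 and 4.84 under mock and 5.97 and 5.81 under Wy. The 2 mock INT livers had the lowest Psat1 levels of the 16.

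Sesn2 was 6.84, 6.90, 7.29 and 6.89 in INT livers (high Wy, low Wy, high mock, low mock), against 7.47, 7.41, 7.13 and 7.30 in CR livers. Only the high mock INT liver reached the CR range. INT minus CR was -0.35 ± 0.12 (adjusted p = 0.0837), and without that liver it was -0.46 (adjusted p = 0.0267). Without the high mock CR liver it was -0.43 (adjusted p = 0.0464). In 23 of 25 alternative settings Sesn2 stayed uncalled here, with an adjusted p of up to 0.698. CR minus MF was 0.32 ± 0.12 (adjusted p = 0.0910).

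For Mthfd2 the lowest levels were those of the INT livers, by a narrow margin. Its levels were 5.42, 5.55, 5.59 and 5.43 in INT livers (high Wy, low Wy, high mock, low mock), against 5.60 to 5.88 in CR, 5.83 to 6.05 in MF and 5.60 to 5.94 in C livers. The INT livers did not overlap with any other diet, although the highest INT liver was at 5.59 and the lowest CR and C livers at 5.60. The share of all genes whose INT livers stand apart in this way was not counted, so the gap cannot be judged against it. INT minus MF was -0.46 ± 0.09 (adjusted p = 0.352, a value shared with other genes and the smallest in that comparison), INT minus CR was -0.22 ± 0.09 (adjusted p = 0.133), and INT minus C was -0.22 ± 0.09 (adjusted p = 0.459). CR minus MF was -0.24 ± 0.09 (adjusted p = 0.0929).

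For the remaining members no diet difference passed the test either. Atf4 had mean levels of 7.54 in INT, 7.48 in CR, 7.44 in MF and 7.31 in C livers, and INT minus C was 0.23 ± 0.10 (adjusted p = 0.506). Trib3 means lay between 5.67 and 5.85 and Phgdh means between 5.94 and 5.97. Atf3 means were 6.03 in INT, 6.31 in CR, 6.81 in MF and 6.38 in C livers, and INT minus MF was -0.78 ± 0.24 (adjusted p = 0.352), the largest diet difference of any measured member.

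**Figure D2:**
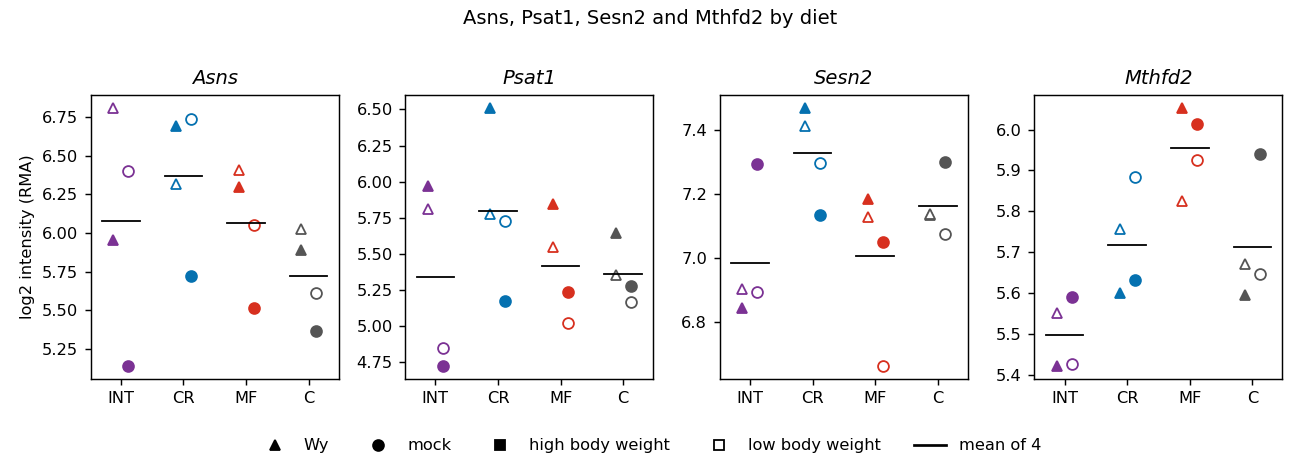
Log2 intensity (vertical axis) of Asns, Psat1, Sesn2 and Mthfd2 in the 4 livers of each diet, triangles for Wy and circles for mock, filled for high body weight, with the mean as a line. The 4 INT livers hold the lowest Mthfd2 levels, and 3 of 4 CR livers lie above all C livers for Asns.

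Genes next to the members did pass the test in CR livers. Mthfd1l and Aldh1l2, mitochondrial one-carbon enzymes that act beside Mthfd2, were higher in CR than in C livers by 0.87 ± 0.12 (adjusted p = 0.0006) and 0.48 ± 0.11 (adjusted p = 0.0128), and Psph, the last step of serine synthesis after Psat1, by 0.35 ± 0.10 (adjusted p = 0.0339). For Mthfd1l, levels were 6.89 to 7.32 in CR livers, against 6.11 to 6.50 in C livers. These 3 of 13 enzymes outside the member list rose and none fell, against 4.54% of all genes called higher. Mthfd2 itself differed by 0.00 ± 0.09 between CR and C.

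The kinase GCN2, encoded by Eif2ak4, which senses uncharged tRNA, was higher in CR than in C livers by 0.28 ± 0.06 (adjusted p = 0.00754), with 7.24 to 7.38 in CR and 6.90 to 7.09 in C livers. Ppp1r15a, the inducible eIF2 phosphatase subunit GADD34, was higher by 0.27 and Dnajc3 by 0.25, and Impact, an inhibitor of GCN2, was lower by 0.36. Of the 8 transporters Slc1a5 rose by 0.68 and Slc38a2 by 0.45 and Slc6a9 fell by 0.79, and 3 of 17 tRNA synthetases rose (Tars 0.51, Iars 0.26, Hars 0.26). Of all genes 4.54% were called higher and 5.98% lower. Of 17 stress targets Vldlr, a lipoprotein receptor raised through ATF4 in mouse liver, was called alone, with 0.72 ± 0.16. In INT against CR livers, which share the CR arrays with the comparison above, Mthfd1l was at -1.04, Vldlr at -1.17, Slc1a5 at -0.69, Aldh1l2 at -0.48, Tars at -0.35 and Eif2ak4 at -0.24. In the same comparison Slc6a9 was higher in INT livers by 0.64, Gadd45a, a stress-induced growth arrest gene, by 0.70 and Eif2b4 by 0.39. Called in it were 1 of 8 genes of eIF2 phosphorylation, 1 of 7 eIF2 and eIF2B subunits and 1 of 17 tRNA synthetases. So were 2 of 17 stress targets, 2 of 8 transporters and 3 of 13 serine, glycine, one-carbon and proline enzymes. Of all genes 9.85% were called.

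Some markers of other cells were called between CR and C livers, beside 10.5% of all genes (4.54% higher, 5.98% lower). Of 8 endothelial and 4 cholangiocyte markers none was called. The erythroid marker Alas2 was lower by 1.34 and the summed erythroid markers were 8.35 to 8.56 in CR livers, against 9.52 to 9.93 in C livers. That sum holds 2 genes and is mostly Alas2, at 8.20 to 10.04 over all arrays, against 4.85 to 5.78 for Slc4a1. Of 6 lymphocyte markers tested 1 was called, as lower, and summed lymphocyte markers were 8.09 to 8.44 in CR livers, against 8.33 to 8.96 in C livers. Of 9 stellate cell and fibroblast markers Col1a1 was lower by 0.42 and Pdgfrb by 0.41, and the summed level was 12.31 to 12.52 in CR livers, against 12.33 to 12.62 in C livers. Of 13 Kupffer cell and macrophage markers Cx3cr1 was lower by 0.57, with sums of 11.58 to 12.32 in CR livers, against 11.96 to 12.58 in C livers. The hepatocyte enzyme Tat was higher by 0.65. Their part in the CR values was not tested.

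Body weight class was compared over all diets, and separately in C and MF mice and in CR and INT mice. Across all 4 diets no member and 0% of all genes were called, with 2000 of 14275 genes at an unadjusted p under 0.05. In C and MF mice, Atf3 was higher in livers of high body weight. Its levels were 6.64, 6.85, 7.07 and 7.37 in the 4 high livers (C Wy, C mock, MF Wy, MF mock), against 6.24, 5.79, 6.60 and 6.21 in the 4 low livers in the same order. The groups did not overlap, but the share of all genes whose high and low livers stand apart in this way was not counted. The difference was 0.77 ± 0.16, 1.71-fold (adjusted p = 0.0196). Atf3 was the 1 member of 8 called, beside 7.39% of all genes, 4.67% higher and 2.72% lower.

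The Atf3 difference was larger among mock than among Wy livers, but this contrast was not tested in C and MF mice alone. Over all diets, the Wy effect on Atf3 in high minus that in low pairs was -0.25 ± 0.23 (adjusted p = 0.9995). Among mock livers alone high minus low was 1.11 (adjusted p = 0.00755), and among Wy livers alone it was 0.43 (adjusted p = 0.407). Leaving out the high mock liver of C gave 0.62 (adjusted p = 0.0876), and leaving out the high mock liver of MF gave 0.59 (adjusted p = 0.0730). The call was also lost without a low C liver (0.74 without the mock and 0.81 without the Wy liver, adjusted p = 0.0769 and 0.0654) and without the low mock MF liver (0.76, adjusted p = 0.0846).

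In CR and INT mice no member and 0% of all genes were called. Atf3 had 5.71 to 6.48 in high livers, against 5.64 to 6.65 in low livers, with a difference of -0.12 ± 0.16. The difference between both effects, C and MF mice minus CR and INT mice, was 0.89 ± 0.23 for Atf3 (adjusted p = 0.103). In this test 0.855% of all genes were called and no member was. Among mock livers the same term was 1.32 (adjusted p = 0.0476), and without the high Wy liver of MF it was 1.08 (adjusted p = 0.0290). Atf3 stayed uncalled for this term in 24 of 26 alternative settings, with an adjusted p of up to 0.810.

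**Figure D3:**
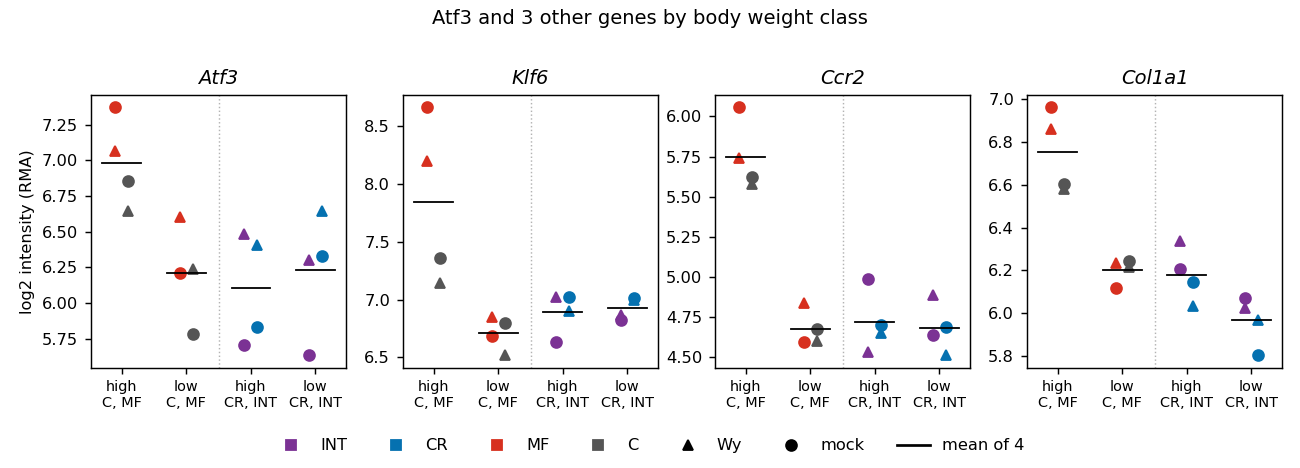
Log2 intensity (vertical axis) of Atf3, the early response gene Klf6, the monocyte receptor Ccr2 and the collagen gene Col1a1 by body weight class, with C and MF livers left of CR and INT livers, triangles for Wy, circles for mock and lines for the mean of 4. The 4 high livers of C and MF lie above the 4 low livers of these diets for each of the 4 genes. Klf6, Ccr2 and Col1a1 were picked among genes called in this comparison, so their separation is no separate evidence.

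Some markers of other cells also differed between high and low livers of C and MF mice. The counts below stand beside 4.67% of all genes called higher and 2.72% called lower. Of 13 Kupffer cell and macrophage markers, 5 were higher and 1 lower in high livers, with Gpnmb at 2.22, Itgax at 1.23, Ccr2 at 1.07 and Trem2 at 0.88. The summed level of the 13 markers was 12.03 to 12.58 in high livers, against 11.91 to 12.08 in low livers. In MF mice given Wy this sum was 12.03 in the high and 12.08 in the low liver. The Kupffer cell lectin Clec4f was 9.23 to 10.03 in high livers, against 9.48 to 9.77 in low livers. Single markers went both ways in the MF mice given Wy. Gpnmb was 6.19 in the high and 4.98 in the low liver, Ccr2 5.74 and 4.84, and Clec4f 9.23 and 9.77. Of 9 stellate cell and fibroblast markers 3 were higher (Col1a2 0.64, Col1a1 0.55, Col3a1 0.53), and the summed level was 12.51 to 12.69 in high livers, against 12.33 to 12.50 in low livers. Of 12 immediate early genes Klf6 (1.13) and Btg2 (1.08) were higher and none was lower. Of 8 endothelial markers 2 were higher, and summed hepatocyte markers were 15.98 to 16.13 in high livers, against 16.08 to 16.16 in low livers. The part of these cells in the Atf3 value was not tested.

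The other members did not follow Atf3. In C and MF livers the high minus low differences were 0.23 for Psat1, 0.17 for Sesn2, 0.13 for Mthfd2, 0.10 for Phgdh, 0.02 for Trib3, -0.10 for Atf4 and -0.26 for Asns, with adjusted p between 0.338 and 0.920. The Phgdh direction depended on the cluster, with 0.18 (adjusted p = 0.481) at the one among chromosome 3 genes and -0.32 (adjusted p = 0.0531) at the remaining one. In CR and INT mice the Asns levels were 5.14 to 6.70 in high livers, against 6.32 to 6.81 in low livers, a difference of -0.69 ± 0.18 (adjusted p = 0.968). Without the low Wy liver of CR it was -0.95 (adjusted p = 0.0398), and in 25 of 26 alternative settings it stayed uncalled, with an adjusted p of up to 0.9997. Over all diets the Asns difference was -0.47 ± 0.15 (adjusted p = 0.214), with -0.77 among mock and -0.18 among Wy livers.

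**Figure D4:**
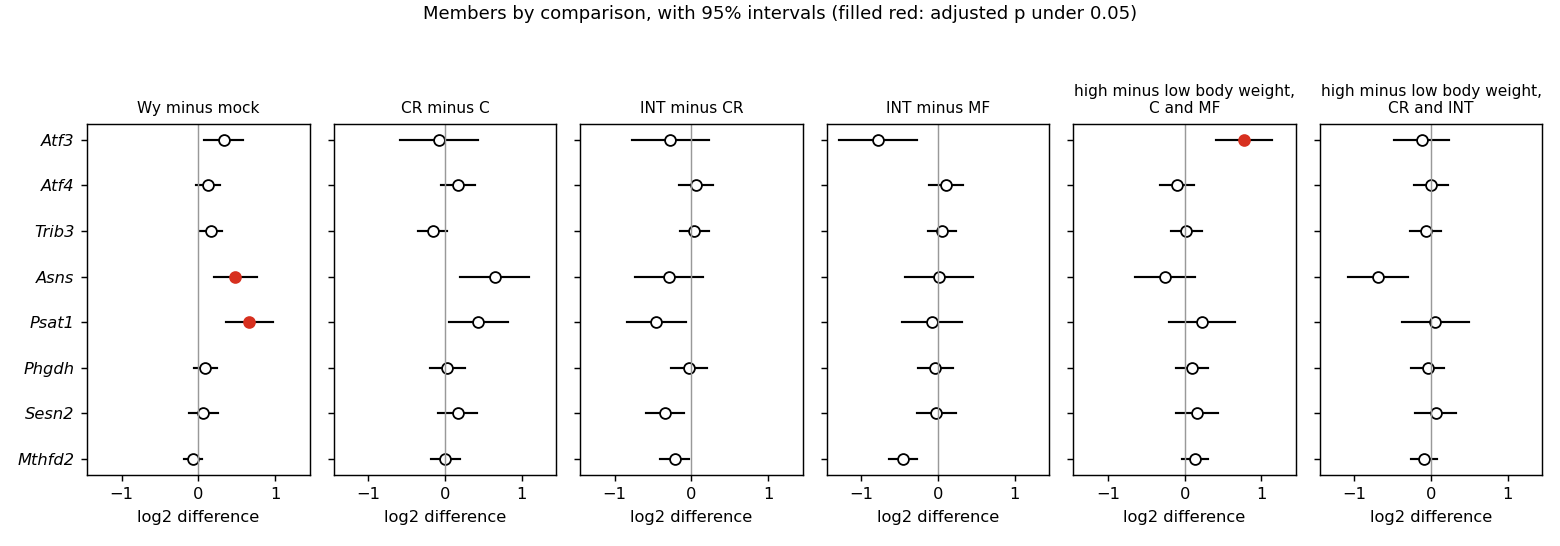
Log2 difference (horizontal axis) of each measured member in 6 comparisons, with its 95% interval, filled red where the adjusted p was under 0.05. The 3 filled points are Asns and Psat1 in Wy minus mock and Atf3 in high minus low body weight of C and MF mice.

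Of the pathway lists, none of the 8 genes of eIF2 phosphorylation, the 7 subunits of eIF2 and eIF2B and the 17 tRNA synthetases was called between body weight classes of C and MF mice, beside 7.39% of all genes. The median differences of the 17 stress targets and the 8 transporters were both 0.15, against -0.0039 over all genes, with 1 called gene in each list. Vldlr was higher by 0.71 ± 0.14 and Aldh18a1, which makes proline, by 0.37 ± 0.07, while Slc43a1 was lower by 0.99, Ern1 by 0.37 and Mthfd1 by 0.33.

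**Figure D5:**
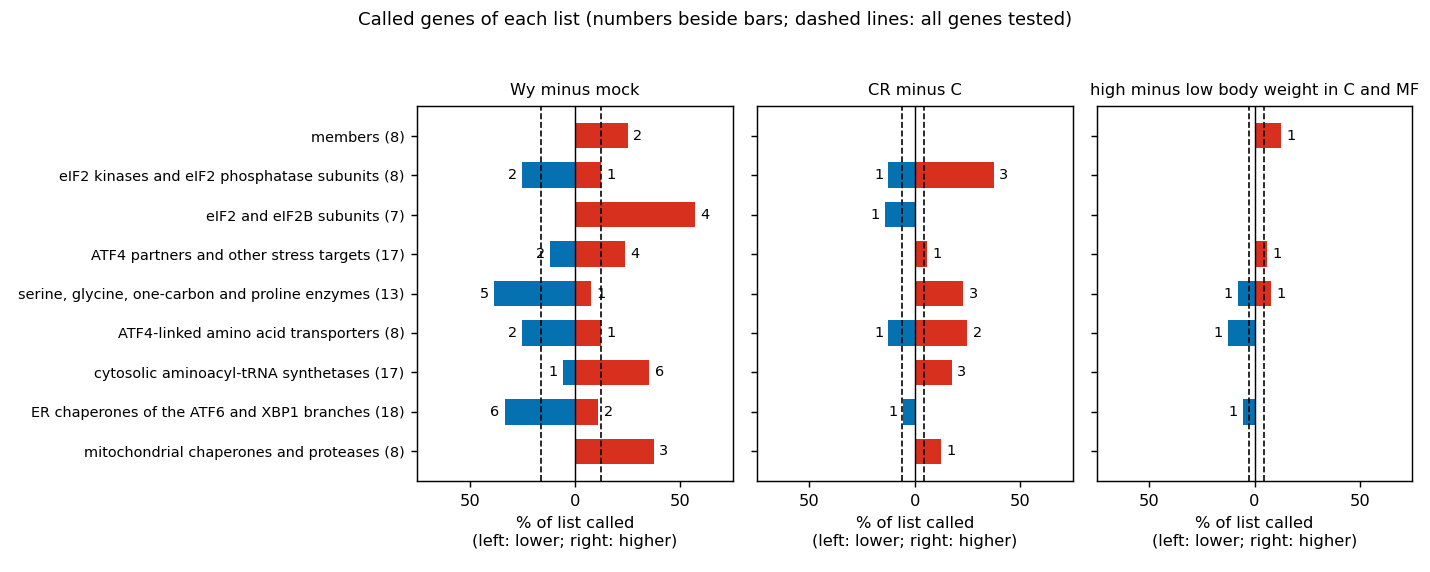
Share of each gene list called higher (right) or lower (left) in 3 comparisons, in percent of the genes tested (in brackets), with the count beside each bar and the share among all genes as dashed lines. With Wy, 4 of 7 eIF2 and eIF2B subunits were higher, and in CR against C livers 3 of 13 serine, glycine, one-carbon and proline enzymes were.

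The members did not move as 1 block over the 16 arrays. The closest pairs by Pearson's r were Atf3 with Mthfd2 (0.66), Asns with Psat1 (0.63) and Atf4 with Asns (0.59), which are descriptions over arrays that share diets and treatments. Among 13785 other genes, Psat1 was most alike to Ifrd2 (0.92), Cadm1 (0.91) and Brd2 (0.90), Asns to Zfp335 (0.85), Mars1 (0.84) and Cxxc1 (0.82), and Atf3 to Myl6 (0.93), Plvap (0.93) and Ost4 (0.90).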

How the data were processed

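Whole-liver RNA of 16 mice was measured on Affymetrix Mouse Gene 1.1 ST arrays. The deposited values are log2 intensities from the authors' robust multi-array averaging (RMA, version not given in the sources used here), which evens out the distributions of the arrays. Of 35556 transcript clusters, 21218 had exactly 1 gene in the platform annotation, and the cluster with the highest mean stood for its gene. Genes over an intensity of 20 on at least 5 arrays were kept. They were fitted with limma 3.58.1 in R 4.3.3, and p-values were adjusted over all 14275 genes by Benjamini-Hochberg. The matched pair was a block for Wy, since the labels pair mice by body weight. Deviations of pair mates from their group means correlated at 0.53 in C, -0.17 in CR, 0.56 in MF and 0.08 in INT. Nothing says that other samples shared a litter or day. The fits were tested on simulated data. The precision is limited by the number of arrays.

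Members and gene lists were chosen with earlier results of these data known, and the difference between both body weight effects was added after the data had been seen. All members were named, and from other lists up to 4 genes with the smallest p where a gene was called, and the Kupffer cell marker Clec4f was added after its values were seen. The alternatives are a different filter, centring, cluster mean, variance model, block, array code or treatment subset, and each array left out. Atf5 and Ddit3 were not analysed.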

Additional observations from a re-analysis of the deposited data

Results flagged for a closer look

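In 2 of 56 groups of member values, 1 value lay far from the rest by Dixon's ratio, where chance alone gives about 1 in 20. The Wy minus mock difference of Asns in the CR pair of low body weight, -0.42, was the lowest of 8 pair differences, and the next lowest was 0.36. The Sesn2 level of the mock INT liver of high body weight, 7.29, was the highest of the 4 INT livers, and the next was 6.90. No member passed a test of a difference in effect between diets or body weight classes.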

How the results depend on the processing

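Of 2975 member values under alternatives, 2953 kept their direction or stayed uncalled, 16 gained a call, 6 lost one and none turned a called direction. Most of these values were uncalled in the main setting, and such a value counts as kept while uncalled, whatever its sign. All 6 losses were among the 27 alternatives of Atf3 for body weight in C and MF. Psat1 and Asns were called for Wy in all 24 alternatives each, with differences of 0.57 to 0.75 and 0.41 to 0.61. With the pair as a block, leaving out either mouse of a pair gives the same Wy result, so these alternatives are not all separate. With the 14 arrays of 1 code, 1 member (Asns) was higher in CR than in C. Among Wy arrays 0 members were higher in high C and MF livers, and among mock arrays 1 member (Atf3) was higher in the difference between both body weight effects. Leaving out single arrays gave 0 to 1 members higher for CR against C, 0 to 1 lower for INT against CR, 0 to 1 higher for body weight in C and MF, 0 to 1 lower for body weight in CR and INT, and 0 to 1 higher for the difference of these. Atf3 also passed for Wy with the intensity filter on all 16 arrays (adjusted p = 0.0498) or with centred arrays (adjusted p = 0.0460).

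Counts over all genes depended more on the settings, and the cause was not tested where arrays were subset. They were 1501 (160 to 1601) for CR against C, 1406 (175 to 1459) for INT against CR, 1807 (238 to 1975) for CR against MF, 1 (0 to 16) for INT against C, 1055 (10 to 1286) for body weight in C and MF, and 122 (1 to 279) for the difference between both body weight effects. With 0 in the main setting, up to 1 gene was called for INT against MF, 19 for body weight over all diets, 5 in CR and INT, and 2 for Wy by diet. The 1 gene whose Wy effect differed between CR and C became 0 to 5, and 0 with no replicate block. Without the replicate block, 3888 genes against 4038 were called for Wy, and 2 members in each. The pair as a random replicate block left 1204, 1159 and 1471 genes for CR against C, INT against CR and CR against MF, changed no call of a member, and gave 216 genes in place of 122 for the difference between both body weight effects with 1 body weight term per pair of diets. The body weight effect in CR and INT could not be fitted with the 14 arrays.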
